A study of Mus musculus with 6 samples.

Results

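Heat shock chaperones are the proteins that keep other proteins folded when a cell is warmed, injured or otherwise stressed. HSP70 proteins bind unfolded stretches with the help of HSP40 (J-domain) partners and of exchange factors such as HSP110. HSP90 proteins finish the folding of kinases and receptors, small heat shock proteins hold unfolded clients, and many of these genes are switched on within minutes by heat shock factor 1 (HSF1). In tissue studies the same genes are also known to rise while an organ is being digested into single cells. The 10 genes described here, Hspa1a, Hspa1b, Hspa8, Hsp90aa1, Hsp90ab1, Hsph1, Hspb1, Dnaja1, Dnajb1 and Hspe1, were taken by name from the 55401 genes listed, all 10 were found, and all 10 passed the filter on low counts, as did 18438 genes in all.

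Kidney endothelial cells (ECs), a CD31+CD45- sort after collagenase digestion at 37 °C, came from male Rbpj f/f mice on tamoxifen. The 3 RbpjΔEC mice (Cre +/-) carried the tamoxifen-dependent Cdh5-CreERT2 transgene, which removes the floxed part of Rbpj in ECs, and the 3 CTRL mice were littermates without Cre (Cre -/-). All received 5 doses of 1.5 mg at 8 weeks of age and were harvested 12 weeks later, at a labelled age of 21 weeks. One library was made per mouse. Since all mice received tamoxifen and all kidneys were digested and sorted, the groups differ by the Cre transgene and the deletion together, and with no undigested sample the level before digestion is unknown.

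The libraries held 39649171 to 47726850 counts on genes, so that each of the 10 genes had between 1006 and 89723 counts in every library. Levels are given as CPM, a gene's counts scaled to a common library total and corrected with edgeR's TMM factors. Rbpj itself, counted over the whole gene, had 28.1 to 29.8 CPM in CTRL and 26.1 to 29.6 in RbpjΔEC, which does not show the floxed part, so each library is grouped by its label alone. The Notch target Hey1 had 16.7 to 22.6 CPM in CTRL and 8.91 to 14.6 in RbpjΔEC. The 12 endothelial markers summed to 21931 to 24051 CPM in CTRL and 19887 to 20194 in RbpjΔEC, while Cd3d and Cd3e of T cells were at 0 in all 6 libraries. CTRL 1 stood apart, with 33764 genes detected where the rest had 25629 to 26785.

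The stretches of promoter that follow are shown because HSF1 binds arrays of inverted GAA units (heat shock elements). They give letters around the RefSeq start sites of genes whose levels are described next. The RefSeq promoter windows used here (GRCm38.p6, from 250 bases before to 50 bases after the start site) held 7 of the 10 genes. Hspa8, Hsp90aa1 and Hsp90ab1 had no window. RefSeq start sites can differ from the gene positions given further on. By those positions the Dnaja1 stretch and the units of both Hsph1 stretches lie inside the gene. In the lines that follow, capitals mark the inverted units, each written 5′ to 3′ on the strand of its gene.

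Hspe1, chr1:55088053-55088082, plus strand: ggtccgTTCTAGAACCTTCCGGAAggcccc
Hsph1, chr5:149636287-149636316, minus strand: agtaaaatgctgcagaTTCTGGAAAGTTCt
Hsph1, chr5:149636351-149636380, minus strand: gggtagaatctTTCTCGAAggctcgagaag
Hspb1, chr5:135887791-135887820, plus strand: cttcaacaagaGAAGTTTCcagatgggggc
Hspb1, chr5:135887811-135887840, plus strand: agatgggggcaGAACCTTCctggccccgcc
Dnaja1, chr4:40722333-40722362, plus strand: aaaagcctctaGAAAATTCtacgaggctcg

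Hspe1 had the longest array, 4 units in a row that begin 89 bases before its start site. The same 18 bases, read on the other strand, lie in the promoter of Hspd1, which encodes the mitochondrial partner of the Hspe1 protein and whose gene model overlaps that of Hspe1 by 112 bases. Hsph1 held 3 units just after its RefSeq start site and 2 units ahead of it. A motif of 3 units (GAANNTTCNNGAA, which is TTCNNGAANNTTC on the other strand) was present in 2 of the 7 genes, and in 0.662% of the 27025 genes with a window. The 2-unit forms (GAANNTTC or TTCNNGAA, each the same on both strands and each contained in the 3-unit motif) were present in 6 of the 7 and in 17.0% of all genes. Dnajb1 had no match of either length in its windows. These are matches of letters only.

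Hspa1a and Hspa1b, the stress-induced HSP70 genes, lie 9951 bases apart on chromosome 17 and have the same letters over much of their promoters. Capitals mark the 2 inverted units and an ATTGG, which is CCAAT on the other strand.

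Hspa1a, chr17:34972207-34972276, minus strand: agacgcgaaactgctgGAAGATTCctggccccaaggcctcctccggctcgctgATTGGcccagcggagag
Hspa1b, chr17:34959289-34959358, minus strand: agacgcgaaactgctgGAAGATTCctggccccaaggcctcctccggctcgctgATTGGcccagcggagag

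These 70 bases are identical in both genes, and of the 250 bases ahead of the start sites 247 are. CCAAT was present in 5 of the 7 genes and in 41.1% of all genes. The transcripts also share long stretches: of the 38-base windows of the Hspa1a transcript, as long as the reads, 61.8% also occur in Hspa1b. How reads that fit both genes were counted is not given in the sources used here, so that the split of counts between them is uncertain, and the sum of both genes is given below.

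The comparison asked which of these chaperones differ between ECs of mice with and without the induced loss of Rbpj. All 10 genes were higher in RbpjΔEC than in CTRL, with a median log2 fold change of 0.59 against 0.01 over all 18438 genes tested. The fitted fold change ran from 1.10 for Hsp90ab1 to 1.89 for Dnaja1. None of the 10 passed an adjusted p of 0.05 in edgeR's quasi-likelihood test (0 of 10, with adjusted p between 0.0738 and 0.488), where 0.575% of all genes passed as higher. At an unadjusted p under 0.05, 8 of the 10 were higher, against 8.88% of all genes, and in 7 of the 10 every RbpjΔEC library lay above every CTRL library, against 11.4% of all genes. DESeq2's Wald test, run without a filter on all 38324 genes with a count, called 4 of the 10 (Hspa1a, Hspa1b, Dnaja1 and Dnajb1) where it called 0.684% of those genes as higher. Run on the 18438 filtered genes, an alternative chosen after seeing the data, it called 6 of the 10, with Hsp90aa1 and Hspe1 added, and 2.35% of all genes as higher.

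**Figure D1:**
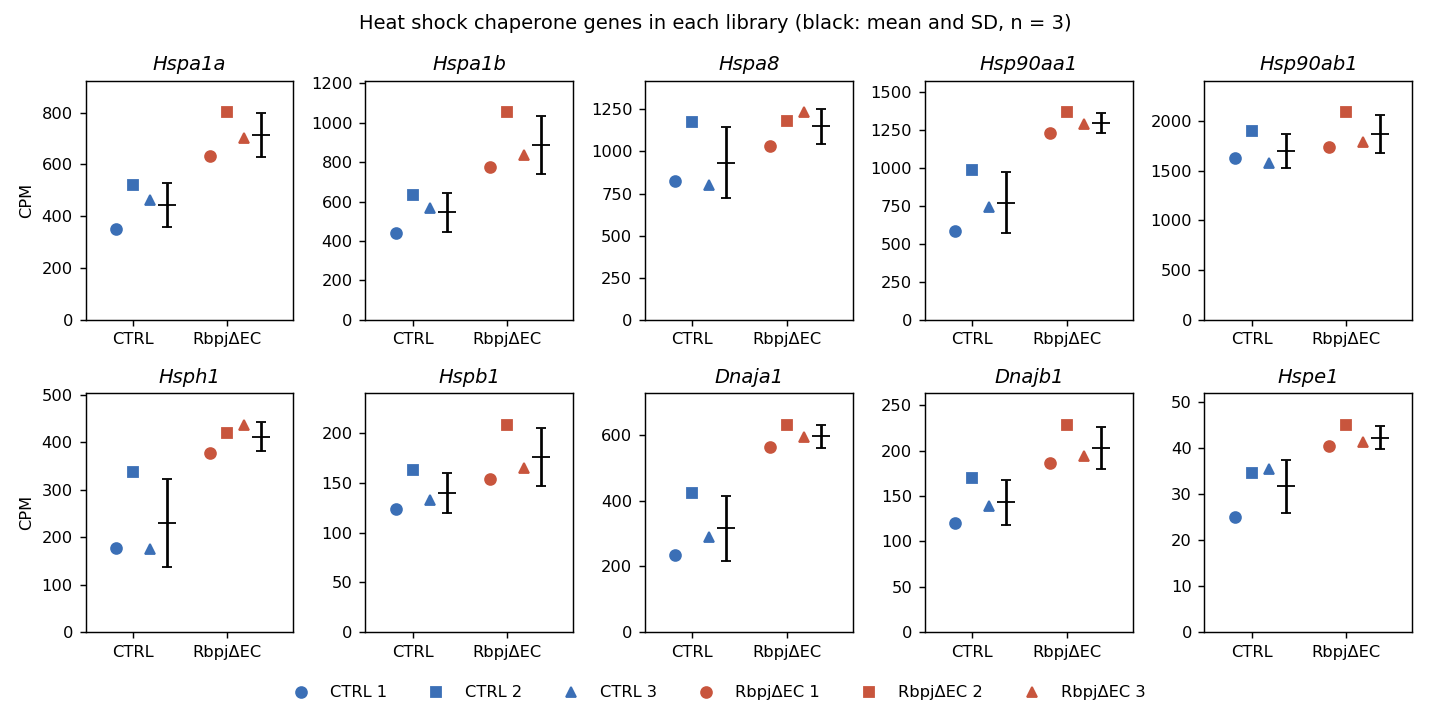
CPM (vertical axes, linear and from 0) of the 10 genes in the 3 CTRL (blue) and 3 RbpjΔEC (red) libraries, with the mean and SD of each group in black. RbpjΔEC libraries lie above all CTRL libraries in 7 panels, and CTRL 2 (blue square) reaches into the RbpjΔEC range for Hspa8, Hsp90ab1 and Hspb1.

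Among the HSP70 genes, Hspa1a (ENSMUSG00000091971.3, chromosome 17, 34969190 to 34972156, a single exon) had 349.4, 518.7 and 463.3 CPM in CTRL mice 1 to 3, and 631.9, 801.8 and 703.6 CPM in RbpjΔEC mice 1 to 3. The groups did not overlap, and CTRL 1 was the lowest library. For Hspa1a the log2 fold change of 0.68 had a standard error of 0.147, and edgeR's test gave an adjusted p of 0.0738. Hspa1b (ENSMUSG00000090877.3, chromosome 17, 34956436 to 34959238, a single exon) followed the same order, with 439.3, 633.1 and 568.3 CPM in CTRL and 776.3, 1054 and 836.1 CPM in RbpjΔEC. Its log2 fold change was 0.70, and with both genes counted as 1 feature it was 0.69 (adjusted p = 0.0730 in the same test), a value that does not depend on how reads were split between them. Hspa8 (ENSMUSG00000015656.17, chromosome 9, 40800984 to 40810087), the HSP70 that cells make at all times, had 826.6, 1174 and 800.7 CPM in CTRL and 1031, 1182 and 1233 CPM in RbpjΔEC. Here CTRL 2 lay within the RbpjΔEC range, and the log2 fold change of 0.30 had a 95% interval from -0.04 to 0.64. Per kilobase of exon, the stress-induced pair made up 58.8%, 59.5% and 65.8% of these HSP70 transcripts in CTRL mice 1 to 3, and 67.2%, 70.2% and 65.1% in RbpjΔEC mice 1 to 3, so the groups overlapped in this share. Its size depends on how reads that fit several genes were counted.

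Hsph1 (ENSMUSG00000029657.15, chromosome 5, 149614287 to 149636376) encodes HSP110, which exchanges nucleotide on HSP70. It had 177.4, 337.3 and 175.5 CPM in CTRL mice 1 to 3, and 377.6, 420.2 and 437.6 CPM in RbpjΔEC mice 1 to 3. CTRL 2 was nearly double the other CTRL libraries and still under every RbpjΔEC library. The SD of log2 CPM of Hsph1 was 0.54 in CTRL and 0.11 in RbpjΔEC, and its log2 fold change was 0.84 with a standard error of 0.297.

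The HSP40 partner Dnaja1 (ENSMUSG00000028410.13, chromosome 4, 40722150 to 40737149) showed the largest fold change of the 10 genes. Its CPM was 233.2, 423.7 and 289.0 in CTRL mice 1 to 3, and 561.7, 631.6 and 594.8 in RbpjΔEC mice 1 to 3. The groups were separated by a wide gap above CTRL 2, and the log2 fold change of Dnaja1 was 0.92 with a standard error of 0.219. In edgeR's test its adjusted p was 0.118. Dnajb1 (ENSMUSG00000005483.10, chromosome 8, 83608193 to 83612653), the stress-induced HSP40, had 120.8, 169.5 and 139.4 CPM in CTRL and 186.1, 228.9 and 193.7 CPM in RbpjΔEC. Its groups did not overlap either, with a log2 fold change of 0.50 (95% interval 0.22 to 0.79).

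The cytosolic HSP90 genes behaved unequally. Hsp90aa1 (ENSMUSG00000021270.13, chromosome 12, 110690605 to 110702728), the inducible form, had 583.5, 984.6 and 745.9 CPM in CTRL mice 1 to 3, and 1233, 1367 and 1287 CPM in RbpjΔEC mice 1 to 3. All RbpjΔEC libraries lay above CTRL 2, the log2 fold change was 0.75 and its 95% interval ran from 0.34 to 1.16. Hsp90ab1 (ENSMUSG00000023944.14, chromosome 17, 45567775 to 45573271), the constitutive form, had 1630, 1894 and 1571 CPM in CTRL and 1740, 2086 and 1783 CPM in RbpjΔEC. CTRL 2 ranked second of the 6 libraries for this gene, and the log2 fold change of 0.14 had a 95% interval from -0.07 to 0.35. Per kilobase of exon, Hsp90aa1 made up 21.5%, 28.4% and 26.6% of the cytosolic HSP90 transcripts in CTRL mice 1 to 3, and 35.1%, 33.3% and 35.5% in RbpjΔEC mice 1 to 3. This share did not overlap between the groups, and Hsp90ab1 was the more abundant form in all 6 libraries.

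Hspb1 (ENSMUSG00000004951.10, chromosome 5, 135887919 to 135889563), a small heat shock protein that binds unfolded clients and actin, had 124.0, 163.1 and 133.4 CPM in CTRL mice 1 to 3, and 153.9, 208.9 and 165.1 CPM in RbpjΔEC mice 1 to 3. CTRL 2 lay above RbpjΔEC 1, and the log2 fold change was 0.33 (95% interval 0.02 to 0.64). Hspe1 (ENSMUSG00000073676.4, chromosome 1, 55088132 to 55091307), the lid of the mitochondrial chaperonin, had 25.04, 34.7 and 35.5 CPM in CTRL and 40.6, 45.2 and 41.3 CPM in RbpjΔEC. It was the only one of the 10 in which CTRL 2 was not the highest CTRL library, and its log2 fold change was 0.41 (95% interval 0.14 to 0.69). Hspd1, the barrel of the same chaperonin, had 44.2, 49.3 and 45.3 CPM in CTRL and 44.1, 51.6 and 52.6 CPM in RbpjΔEC, a log2 fold change of 0.09 (95% interval -0.10 to 0.29) with overlapping groups.

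Per kilobase of exon, the level of Hsp90ab1 as counted was the highest of the 10 in both groups, with 566.3 ± 57.3 CPM per kb (SD, n = 3) in CTRL and 623.4 ± 63.0 in RbpjΔEC. In CTRL, Hspa8 (217.1 ± 48.5), Hsp90aa1 (196.2 ± 51.3), Hspa1b (195.1 ± 35.2), Hspa1a (149.6 ± 29.1) and Hspb1 (136.0 ± 19.8 CPM per kb) came next, and of the neighbours in this order only Hspa1b and Hspa1a differed by more than the SD of either. The difference between Hspa1b and Hspa1a depends on how reads that fit both genes were counted, which is not given. Dnajb1 (44.7 ± 7.67), Dnaja1 (36.5 ± 11.4), Hsph1 (31.7 ± 12.8) and Hspe1 (21.5 ± 3.95 CPM per kb) were lowest, and neighbours among Dnajb1, Dnaja1 and Hsph1 differed by less than the SD of Dnaja1. In RbpjΔEC, Hsp90aa1 (329.6 ± 17.1 CPM per kb) and Hspa1b (317.1 ± 52.2) stood above Hspa8 (267.0 ± 24.4), Hsp90aa1 by more than the SD of either gene and Hspa1b by less than its own SD. In the same group Dnaja1 (69.1 ± 4.05) and Dnajb1 (63.3 ± 7.13) differed by less than the SD of Dnajb1. Lengths are those of the annotated exons. In Hspa8, Hsp90aa1 and Hspb1 between 42.6% and 53.4% of the 38-base transcript windows also occur in other annotated genes, mostly pseudogenes. The share was 68.8% in Hspa1a and 65.9% in Hspa1b, mostly windows that each has in common with the other. It was 7.35% in Hsp90ab1 and 0% in Hsph1. Levels of genes with a large share are less certain than those of Hsph1. The order of the 10 genes, with Hsp90ab1 at the top, can depend on how such reads were counted.

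The CTRL libraries were not alike in these genes. CTRL 2 was the highest CTRL library for 9 of the 10, against 34.6% of all genes tested, and CTRL 1 was the lowest of all 6 libraries for 7 of the 10, against 20.9% of all genes. Against the mean CTRL CPM, the median log2 deviation of the 10 genes was -0.33, 0.23 and -0.06 in CTRL mice 1 to 3, and 0.44, 0.75 and 0.52 in RbpjΔEC mice 1 to 3. The RbpjΔEC libraries kept an order as well: RbpjΔEC 1 was the lowest of its group for all 10 genes, and RbpjΔEC 2 the highest for 8, with Hspa8 and Hsph1 highest in RbpjΔEC 3. The SD of log2 CPM was larger in CTRL than in RbpjΔEC for 9 of the 10 genes, with a median of 0.29 against 0.14, where over all genes tested the medians were 0.18 and 0.17.

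**Figure D2:**
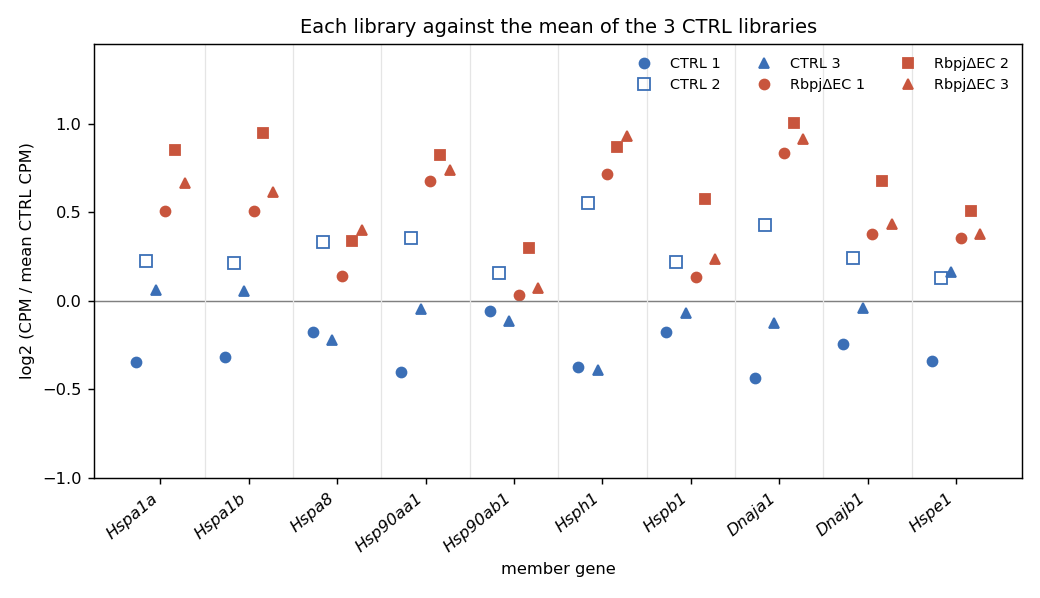
Log2 of the CPM of each library over the mean CPM of the 3 CTRL libraries (vertical axis) for each of the 10 genes (horizontal axis), with CTRL in blue and RbpjΔEC in red. CTRL 2 (open square) is the highest CTRL library in 9 genes, and lies above RbpjΔEC 1 in 3 of them.

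Of the 6 edgeR fits that each left out 1 library, only that without CTRL 2 called any of the 10 genes. Leaving out CTRL 2 raised the log2 fold change of all 10 genes and brought 6 of them (Hspa1a, Hspa8, Hsp90aa1, Hsph1, Dnaja1 and Dnajb1) past an adjusted p of 0.05 in edgeR's quasi-likelihood test, in a fit that called 2.09% of all genes as higher. Without CTRL 2 the log2 fold change of Hsph1 was 1.22 and that of Dnaja1 1.18. The 5 fits that each left out another library called none of the 10. At an unadjusted p under 0.05, 6 of the 10 were higher without CTRL 1 (6.16% of all genes), 6 without CTRL 3 (6.49%), 8 without RbpjΔEC 1 (6.14%), 6 without RbpjΔEC 2 (7.52%) and 7 without RbpjΔEC 3 (8.19%). All 10 were higher in RbpjΔEC in each of these fits, and the median log2 fold change was between 0.46, without CTRL 1, and 0.66, without RbpjΔEC 1. No label sets CTRL 2 apart from the other CTRL mice, so the fit on all 6 libraries is the one reported.

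**Figure D3:**
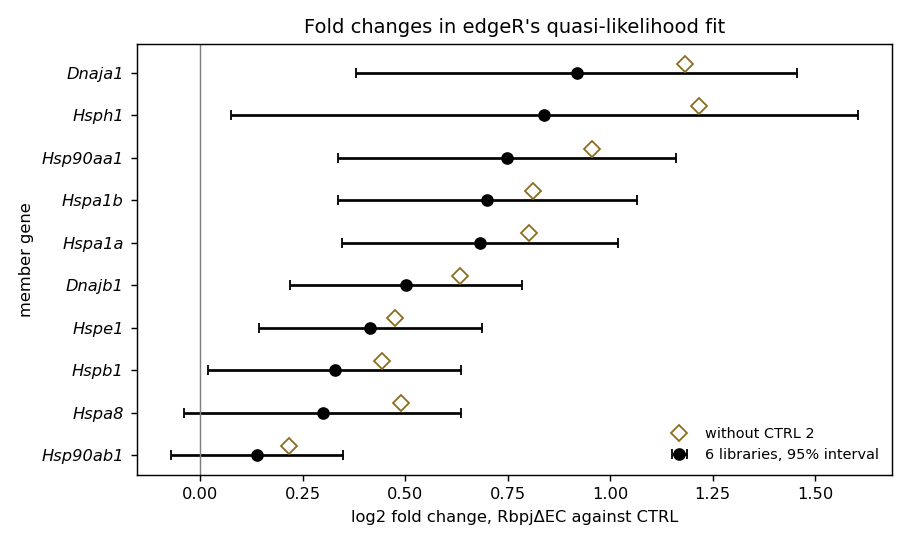
Log2 fold change of RbpjΔEC against CTRL (horizontal axis) for the 10 genes, with the 95% interval of the edgeR fit on 6 libraries (black) and the value without CTRL 2 (open diamonds). The intervals of 8 genes lie above 0, those of Hspa8 and Hsp90ab1 cross it, and every diamond lies to the right of its point.

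Together the 10 genes held 4509, 6333 and 4922 CPM in CTRL mice 1 to 3, and 6731, 8026 and 7275 CPM in RbpjΔEC mice 1 to 3. This was 0.444% to 0.629% of all counts in CTRL and 0.687% to 0.813% in RbpjΔEC. The mean of the sum was 5255 ± 956 CPM (SD, n = 3) in CTRL and 7344 ± 650 CPM in RbpjΔEC, a log2 ratio of 0.48. In bulk RNA, a change in the share of a kind of cell and a change of RNA per cell cannot be told apart.

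The next comparison asked whether other genes of protein folding moved in the same way. Of 20 other genes that respond to HSF1, all tested, 12 were higher and 8 lower in RbpjΔEC, and their median log2 fold change was 0.10. None was called in edgeR's quasi-likelihood test (0 of 20; at an unadjusted p under 0.05, 5 were higher and 2 lower, where 8.88% of all genes were higher and 8.62% lower). Dnajb4, a further HSP40 gene, had a log2 fold change of 0.28, from means of 47.9 ± 2.68 CPM in CTRL and 58.1 ± 2.38 CPM in RbpjΔEC (SD, n = 3). Fkbp4, which encodes an HSP90-bound immunophilin, went the other way, at 70.7 ± 8.75 CPM in CTRL and 57.0 ± 4.27 CPM in RbpjΔEC (SD, n = 3). CTRL 2 was the highest CTRL library for 17 of these 20 genes as well.

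The factors that switch these genes on were measured as well. Hsf1 had 53.1, 62.8 and 50.0 CPM in CTRL mice 1 to 3, and 62.6, 58.8 and 59.0 CPM in RbpjΔEC mice 1 to 3, so that CTRL 2 was the highest of all 6 libraries. Its log2 fold change was 0.12 and that of Hsf2 0.16, while Hsbp1, whose protein binds and restrains HSF1, had -0.20. None of the 5 genes of this list was called in edgeR's quasi-likelihood test (0 of 5), and at an unadjusted p under 0.05, where 8.62% of all genes were lower, 1 of the 5 was (Hsbp1). HSF1 is controlled mainly as a protein, which these counts do not measure.

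Chaperones of other compartments mostly had lower values in RbpjΔEC. Of 17 chaperones of the endoplasmic reticulum, 15 were lower in RbpjΔEC, and the list's median log2 fold change was -0.26. Pdia3, a disulfide isomerase, fell from 382.7 ± 26.7 to 297.5 ± 15.8 CPM (SD, n = 3), a log2 fold change of -0.36 with an adjusted p of 0.0459 in edgeR's test. It was the only one of the 17 called, where 0.559% of all genes were called as lower, and at an unadjusted p under 0.05 there were 13 lower, against 8.62% of all genes. Hsp90b1, the HSP90 of this compartment, had 787.7 ± 21.8 CPM in CTRL and 647.9 ± 13.6 CPM in RbpjΔEC (SD, n = 3), with no overlap of the groups. Its cytosolic relative Hsp90aa1 had the opposite sign. Dnajc3, a co-chaperone of the same compartment, had a log2 fold change of -0.29, and Hspa5, its HSP70, 0.11. The call of Pdia3 was lost in 5 of the 6 fits that left out 1 library, all but the fit without CTRL 2, while the number lower was 15 of 17 in each.

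Of 14 subunits of the CCT chaperonin and of prefoldin, which fold actin and tubulin, 13 were lower (median log2 fold change -0.16), and the smallest p belonged to Cct6a (-0.26), Cct5 (-0.23) and Pfdn6 (-0.31). Of 13 mitochondrial chaperones and proteases, 10 were lower with a median of -0.12, and the smallest p belonged to the disaggregase gene Clpb (-0.38), Dnaja3 (-0.21) and Grpel2 (0.26). Of 27 further genes, co-chaperones of HSP70 and HSP90 together with 5 other HSP70 family genes, 10 were higher and 17 lower (median -0.04). The smallest p among these belonged to the co-chaperone genes Bag5 (-0.29) and Tomm34 (0.28) and to Hspa2 (0.36), itself an HSP70 gene. Of these 3 lists no gene was called in edgeR's quasi-likelihood test (0 of 54), and at an unadjusted p under 0.05 3 were higher and 10 lower, against 8.88% and 8.62% of all genes. Of 6 small heat shock genes in a list of their own, only Hspb6 and Hspb9 were tested, at log2 fold changes of 0.44 and 0.19, and neither was called (0 of 2 at an unadjusted p under 0.05 as well). Hspb9 had only 15 to 22 counts per library. The small heat shock genes Hspb8 and Cryab, counted above among the other genes that respond to HSF1, had log2 fold changes of 0.19 and -0.32, and neither was called. Over the chaperone and heat shock factor lists other than the 10 genes, DESeq2 called 6 genes without a filter, among them Clpb, Hsp90b1, Canx, Pdia3 and Dnajc3, and 10 on the filtered genes, with Tomm34, Bag5, Hspa2 and Cct6a added.

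**Figure D4:**
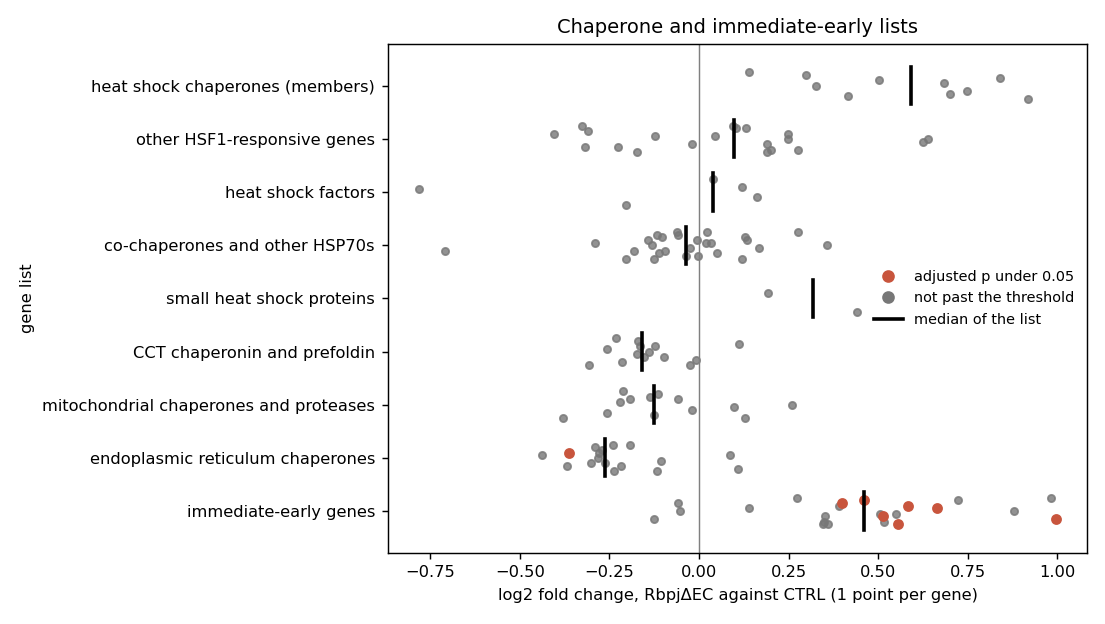
Log2 fold change of RbpjΔEC against CTRL (horizontal axis) for every tested gene of 9 lists (vertical axis), with 1 point per gene, red for an adjusted p under 0.05 and a black bar at the median of each list. The 10 heat shock chaperones all lie above 0, and 15 of the 17 endoplasmic reticulum chaperones below it.

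Genes that respond at once to many stimuli, and that are also known to rise during digestion, were compared beside the chaperones. Of 23 tested immediate-early genes, 20 were higher in RbpjΔEC, at a median log2 fold change of 0.46, and 7 were called as higher in edgeR's quasi-likelihood test, where 0.575% of all genes were. The called genes were Egr1, Btg2, Egr3, Atf3, Fos, Junb and Ier2. Fos had 447.7, 505.3 and 442.9 CPM in CTRL mice 1 to 3, and 686.1, 675.4 and 559.9 CPM in RbpjΔEC mice 1 to 3. CTRL 2 was again the highest CTRL library, as for 20 of the 23 genes. Against the mean log2 CPM of CTRL, the median deviation of this list was -0.09, 0.16 and -0.13 in CTRL mice 1 to 3, and 0.43, 0.54 and 0.30 in RbpjΔEC mice 1 to 3. Taken in this same way, the 10 chaperones had -0.30, 0.25 and -0.04 in CTRL, and 0.46, 0.77 and 0.54 in RbpjΔEC. The number called was 0 without CTRL 3, 1 without CTRL 1, RbpjΔEC 1 or RbpjΔEC 2, 11 without CTRL 2 and 13 without RbpjΔEC 3. In both lists the median of CTRL 2 lay nearest to the RbpjΔEC libraries and that of RbpjΔEC 2 was highest. The part of the immediate-early response in the chaperone result was not tested.

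**Figure D5:**
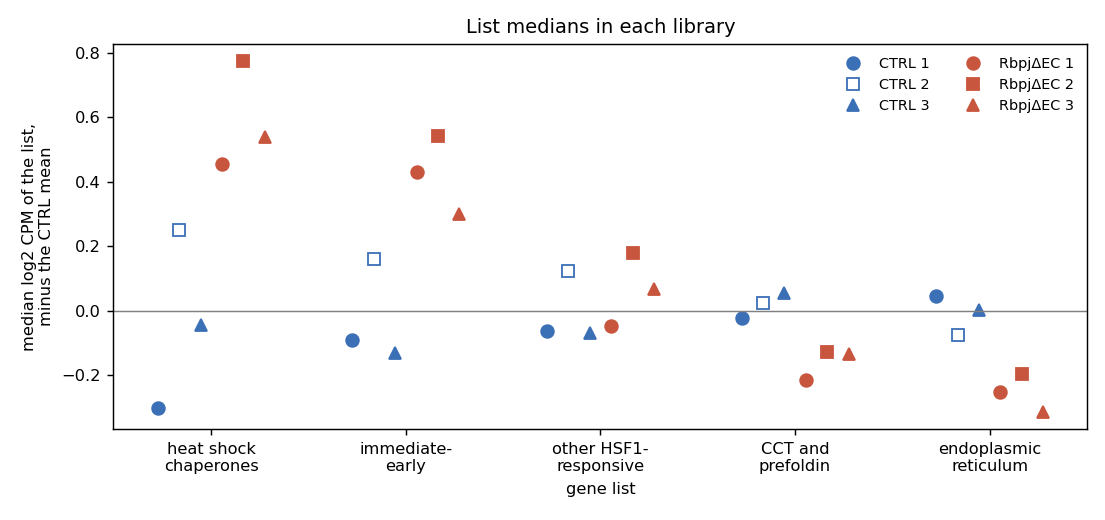
Median log2 CPM of 5 gene lists in each library, relative to the mean of the 3 CTRL libraries (vertical axis), with CTRL in blue and RbpjΔEC in red. CTRL 2 (open square) is the highest CTRL library for the heat shock chaperones, the immediate-early genes and the other HSF1-responsive genes, and all 3 RbpjΔEC libraries lie below all CTRL libraries for the CCT and endoplasmic reticulum lists.

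Markers of other cells differed between the groups too. The 8 mural markers, of smooth muscle and pericytes, summed to 74.9 to 92.1 CPM in CTRL and 28.9 to 48.2 CPM in RbpjΔEC. All 7 tested were lower (median log2 fold change -1.15), 6 of them at an unadjusted p under 0.05, against 8.62% of all genes. In edgeR's quasi-likelihood test 3 were called as lower (Acta2, Myh11 and Rgs5), where 0.559% of all genes were. The 6 fibroblast markers summed to 4.62 to 7.07 CPM in CTRL and 1.54 to 2.92 CPM in RbpjΔEC. All 3 tested were lower, and Pdgfra was called as lower in the same test. The 7 macrophage markers summed to 18.2 to 22.5 CPM in CTRL and 25.3 to 30.4 CPM in RbpjΔEC, a sum that pools opposite values. Of the 5 tested, only Cd68, a lysosomal protein gene, was higher, and it rose from 9.96 to 24.03 CPM on average. The other 4 were lower, of which Mrc1 was called as lower and Csf1r (2.37 and 0.798 CPM in CTRL and RbpjΔEC), Lyz2 (1.37 and 0.576 CPM) and C1qa (0.259 and 0.220 CPM) were not called, while the defining Adgre1 and C1qb averaged 0.251 and 0.197 CPM in CTRL and 0.0881 and 0.143 in RbpjΔEC. The 5 podocyte markers summed to 3182 to 3557 CPM in CTRL and 2589 to 2857 CPM in RbpjΔEC, nearly all of it Podxl, which ECs also express (3229 ± 214 and 2543 ± 141 CPM, SD, n = 3). Of the 5, 4 were lower (median log2 fold change -0.66), and none was called in edgeR's quasi-likelihood test (0 of 5), with Podxl alone under an unadjusted p of 0.05. The defining Nphs1 averaged 2.01 CPM in CTRL and 1.148 in RbpjΔEC. The 8 lymphocyte markers summed to at most 4.93 CPM. The 10 tubule markers summed to 302.1 to 431.4 CPM in CTRL, and to 174.3, 128.1 and 457.9 CPM in RbpjΔEC mice 1 to 3. Lrp2, a receptor gene of the proximal tubule, reached 129.1 CPM in RbpjΔEC 3 against 13.7 to 40.3 in the other 5 libraries. The tubule sum also pools opposite values: the 5 proximal markers had higher means in RbpjΔEC, and the 5 markers of later segments lower ones, such as Umod with 76.8 ± 26.1 and 33.6 ± 13.3 CPM and Slc12a3 with 103.4 ± 38.8 and 29.9 ± 29.8 CPM in CTRL and RbpjΔEC (SD, n = 3). Each of the 5 proximal markers was highest in RbpjΔEC 3. Slc34a1 had 17.1, 19.5 and 73.5 CPM in RbpjΔEC mice 1 to 3, against 6.22 to 21.9 in CTRL. For Slc5a2 all RbpjΔEC libraries lay above all CTRL libraries. None of the 10 was called in edgeR's quasi-likelihood test (0 of 10), and at an unadjusted p under 0.05, 1 lay higher and 3 lay lower, against 8.88% and 8.62% of all genes. RbpjΔEC 2, the library with the lowest tubule and mural sums, was the one with the highest sum of the 10 chaperones. RbpjΔEC 3, with the highest tubule sum of all libraries, had a chaperone sum of 7275 CPM, above that of RbpjΔEC 1 (6731 CPM). The part of these cells in the chaperone levels was not tested. Mitochondrially encoded RNA was 6.48% to 7.17% of counts in CTRL and 5.40% to 6.64% in RbpjΔEC.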

How the data were processed

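RNA was sequenced from kidney ECs of 3 CTRL and 3 RbpjΔEC mice, with 1 library per mouse, so that p-values measure the spread between these mice and their libraries together. Per the submitters' processing notes, reads were trimmed (Trim Galore 0.6.4), aligned with STAR 2.6.1d to mm10 (GRCm38.p6), and the authors deposited whole-number counts per gene from featureCounts (Subread 1.6.4). The strand setting and the handling of reads that fit several genes are not given in the sources used here. The deposited counts, not normalized, were fitted in R 4.3.3 with edgeR 4.0.16 (filterByExpr, TMM, robust quasi-likelihood test, Benjamini-Hochberg adjustment over all 18438 genes, threshold 0.05). CPM used the total of all listed genes times the TMM factor. A floor of 3 counts, the least taken as detected, corresponds to 0.0629 to 0.0757 CPM. Positions and exon lengths came from a GENCODE annotation of GRCm38, in which the 10 gene IDs were identical, and promoter windows from RefSeq. Motifs were matched on both strands.

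The 10 genes and all other lists were chosen with earlier results of these data known, and the tests do not treat them as independent of these. Named were all 10 genes, and in each chaperone, heat shock factor and immediate-early list each gene past the threshold and the 3 with the smallest p, except 1 gene that is not reported here. Hspd1, Hsf1, Hspa5, Hspb8, Cryab and single marker genes were named in addition, after their values were seen. Alternatives were RLE size factors, library size alone, no filter, a filter of 1 CPM in 3 libraries, DESeq2 1.42.0 on all genes with a count and, added after seeing the data, on the filtered genes, edgeR without robust estimation, each library left out in turn, and the replicate number as a block.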

Additional observations from a re-analysis of the deposited data

How the results depend on the processing

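All 10 chaperones stayed higher in RbpjΔEC under every alternative run, with no sign reversed. The number past the threshold was 0 of 10 with RLE size factors, library size alone or a filter of 1 CPM in 3 libraries, 6 without a filter on low counts, 4 with DESeq2 on all genes with a count, 6 with DESeq2 on the genes of the edgeR fit (chosen after seeing the data), 1 (Dnaja1) with edgeR without robust estimation, and 0 to 6 when 1 library was left out, with 6 without CTRL 2. Over all genes, 209 were called, against 1436 without a filter, 584 and 944 with DESeq2 on these 2 sets of genes, and 21 to 700 with 1 library left out (700 without CTRL 2). Of the other chaperone lists, 1 gene (Pdia3) was called, against 0 with library size alone or without robust estimation, 14 without a filter, 6 and 10 with DESeq2 on the same sets, and 0 to 6 with 1 library left out. The cause was not tested. Library size alone called 241 genes, 159 of them higher, against 106 of 209, and moved the median log2 fold change of all genes to 0.05 and that of the 10 to 0.63.

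With the replicate number as a block, 6 of the 10 chaperones and 344 genes in all were called. No label says whether the numbers pair mice. Over all tested genes, deviations of same-numbered libraries correlated at 0.0231, 0.00916 and 0.00544, and each of the 3 CTRL libraries correlated best with another number. For the 10 chaperones the median deviations given above had the same order by number in both groups. They were -0.33, 0.23 and -0.06 in CTRL mice 1 to 3, and 0.44, 0.75 and 0.52 in RbpjΔEC mice 1 to 3. With so few mice these values cannot decide whether the numbers pair mice. With 3 mice a group and 1 library per mouse, the spread between mice was not separated from counting error or library preparation. The small number of mice limits the precision.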
